A study of Mus musculus with 18 samples.

Results

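The heat shock chaperones examined here were 10 genes chosen by name for what their proteins do: Hspa1a, Hspa1b, Hspb1, Hspa8, Dnajb1, Hsp90aa1, Hspd1, Hspe1, Hsph1 and Bag3. Each of the 10 had a row in both deposited tables, which held 23457 genes as read counts and 23396 genes as FPKM, in which fragments are divided by transcript length and by the mapped depth of the heart. All 10 passed the filter on low counts.

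Heat shock proteins are chaperones, which hold unfolded proteins in solution and help them to fold. In the cytosol, J-domain proteins such as Dnajb1 deliver clients to the HSP70 proteins, and Hsph1 and Bag3 help HSP70 release them, while Hspd1 and Hspe1 form the folding chamber of the mitochondrial matrix. Heat shock factor 1 (Hsf1) raises transcription of many of these genes within minutes of heat or oxidative stress, by binding heat shock elements, which are inverted repeats of the unit GAA. In heart muscle, small heat shock proteins and Bag3 are known for maintaining the Z-disc under load.

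The 18 hearts came from male C57BL/6 mice aged 17 weeks, with 6 hearts in each of 3 groups. All mice had received intravenous rAAV6, an adeno-associated viral vector. It carried FLAG-tagged PLCβ1b, FLAG-tagged PLCβ1a or, in rAAV6-blank, a promoter with no protein product. PLCβ1b and PLCβ1a are splice variants of phospholipase Cβ1, and no uninjected or heat-stressed hearts are among the samples. Each heart is a separate mouse and bears its mouse number. The labels name both ventricles as the tissue, whereas the methods name the left ventricle.

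Total counts ran from 13246339 to 24155465 per heart, of which 3908354 to 7591558 fell on nuclear genes, and the 10 chaperones took 0.104 to 0.192% of the nuclear counts. Plcb1 was higher in all 12 PLC hearts than in any blank heart, by a log2 fold change of 2.90 in PLCβ1b and 1.82 in PLCβ1a (edgeR quasi-likelihood test, FDR 8.24e-05 and 0.0299). The 2 PLC groups also differed in Plcb1, with means of 8.28 FPKM in PLCβ1b and 3.86 in PLCβ1a hearts. Between them the log2 fold change was 1.09 (95% interval 0.63 to 1.54, edgeR FDR 0.801), and 5 of 6 PLCβ1b hearts lay above all PLCβ1a hearts. The part of this difference in comparisons of the 2 PLC groups was not tested. All 7 cardiomyocyte markers were present, with a summed level of 13514 to 16251 FPKM per heart. Summed erythrocyte markers (4 of 6 listed genes in the table) were 303 to 467 FPKM in blank hearts, 416 to 637 in PLCβ1a hearts and 346 to 555 in PLCβ1b hearts. Blank heart 30 was near blank heart 26, with a chi-square per gene of 2.98, and farther from the other 4 blank hearts, at 5.35 to 9.48, where pairs among the other 5 blank hearts had 1.83 to 4.28. Pairs within the PLCβ1a and PLCβ1b groups reached 6.86 and 6.78.

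Hspa1a and Hspa1b encode the stress-inducible HSP70. They lie in tandem on the minus strand at chr17:34969359-34972156 and chr17:34956429-34959238 of mm10, each as 1 exon, with 10120 bases between them. Hspd1 and Hspe1 lie head to head on chromosome 1, at chr1:55077834-55087932 on the minus strand and chr1:55088148-55091317 on the plus strand, so that 215 bases separate their starts. The other members lie apart, Hspb1 at chr5:135887919-135889563, Hsph1 at chr5:149616845-149636315, Dnajb1 at chr8:83608175-83611903, Hspa8 at chr9:40801273-40805199, Hsp90aa1 at chr12:110691036-110696395 and Bag3 at chr7:128523583-128546979.

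A RefSeq promoter (GRCm38.p6) beginning at the deposited gene start was matched for 8 of the 10 members, and Hspa8 and Hsp90aa1 were not matched. The 250 bases before each start were searched for a pair of heat shock element units facing each other, GAANNTTC or TTCNNGAA. Both patterns read the same on the 2 strands, and neighbouring pairs can share a unit. A pair was found in 6 of the 8 promoters, those of Hspa1a, Hspa1b, Hspb1, Hspd1, Hspe1 and Hsph1, and none in those of Dnajb1 and Bag3. Of 32851 promoters in the table, 12.8% held a pair, 1.46% held at least 2 and 0.466% held 3 units in a row. Hspd1 and Hspe1 read the same stretch from either side, and it holds 3 overlapping pairs, which 0.14% of all promoters reached. The Hspa1a and Hspa1b promoters were identical at 247 of 250 bases. The last 130 bases before the start are given for 5 members, which were chosen because they hold a pair, with the stretch shared by Hspd1 and Hspe1 given once. They are written 5′ to 3′ on the strand of the gene, and capitals mark the pairs.
Hspa1a (chr17:34972157-34972286, minus strand): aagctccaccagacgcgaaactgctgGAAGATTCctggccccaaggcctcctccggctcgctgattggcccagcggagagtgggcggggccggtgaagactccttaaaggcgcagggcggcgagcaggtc
Hspa1b (chr17:34959239-34959368, minus strand): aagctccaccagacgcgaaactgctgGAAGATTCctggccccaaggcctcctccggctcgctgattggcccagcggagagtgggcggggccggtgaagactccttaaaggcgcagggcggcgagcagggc
Hspb1 (chr5:135887789-135887918, plus strand): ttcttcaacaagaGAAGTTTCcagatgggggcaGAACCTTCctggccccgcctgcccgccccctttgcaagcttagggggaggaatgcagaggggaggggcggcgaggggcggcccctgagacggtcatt
Hsph1 (chr5:149636316-149636445, minus strand): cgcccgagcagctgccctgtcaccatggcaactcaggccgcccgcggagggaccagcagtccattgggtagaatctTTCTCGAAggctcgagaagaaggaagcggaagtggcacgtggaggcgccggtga
Hspe1 (chr1:55088018-55088147, plus strand; read on the other strand, the same pairs stand before Hspd1): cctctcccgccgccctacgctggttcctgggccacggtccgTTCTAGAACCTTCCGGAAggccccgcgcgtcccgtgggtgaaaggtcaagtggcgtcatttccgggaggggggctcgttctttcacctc
The pair in Hspa1a and in Hspa1b has the same letters and begins 104 bases before the start in both, and that of Hsph1 begins 54 bases before the start. A match of letters is a description of these windows, and binding was not measured.

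Per length of transcript, the constitutive HSP70 Hspa8 was the most abundant member, at 205 ± 26.02 FPKM (SD, n = 18 hearts), above 99.4% of all genes in the FPKM table. The small heat shock protein Hspb1 followed at 54.8 ± 13.5 FPKM and the mitochondrial HSP60, Hspd1, at 44.5 ± 4.44. Then came the co-chaperone Bag3 at 31.0 ± 4.35 FPKM, the mitochondrial HSP10 Hspe1 at 29.1 ± 4.27 and the inducible HSP90 Hsp90aa1 at 25.1 ± 8.22. The inducible HSP70 genes Hspa1a and Hspa1b stood at 11.9 ± 8.81 and 11.6 ± 9.10 FPKM, the HSP110 gene Hsph1 at 10.3 ± 3.99 and the J-domain gene Dnajb1 at 7.61 ± 3.57. In this order the ranges of mean ± SD met for all neighbours except Hspa8 with Hspb1 and Hspd1 with Bag3, and in both of these pairs the first gene was higher in 18 of 18 hearts. The order is that of the FPKM table. Where counts were divided by exon length instead, Hspa1a and Hspa1b fell to the last places, and Hspd1 passed Hspb1.

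The 2 tables differed most for genes with near-identical copies. The ratio of FPKM to CPM per kilobase of exon (CPM are counts divided by the TMM-scaled depth) was 3.64 for Hspa8, 2.52 for Hspa1a, 2.49 for Hspa1b, 2.14 for Hspb1 and 2.11 for Hsp90aa1, and lay between 1.05 and 1.25 for the other 5. The share of 75-base windows of the transcript that stand letter for letter in another gene was 68.0% for Hspa8, 55.8% for Hspa1b, 54.2% for Hspa1a, 53.1% for Hsp90aa1 and 47.3% for Hspb1. It was 33.7% for Hspd1, 23.7% for Hspe1 and 0 for Dnajb1, Hsph1 and Bag3. Nearly all shared windows of Hspa1a and Hspa1b were with each other, so that a read can match both genes and each value is uncertain apart from the pair. How ambiguous reads were counted was not tested here.

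**Figure D1:**
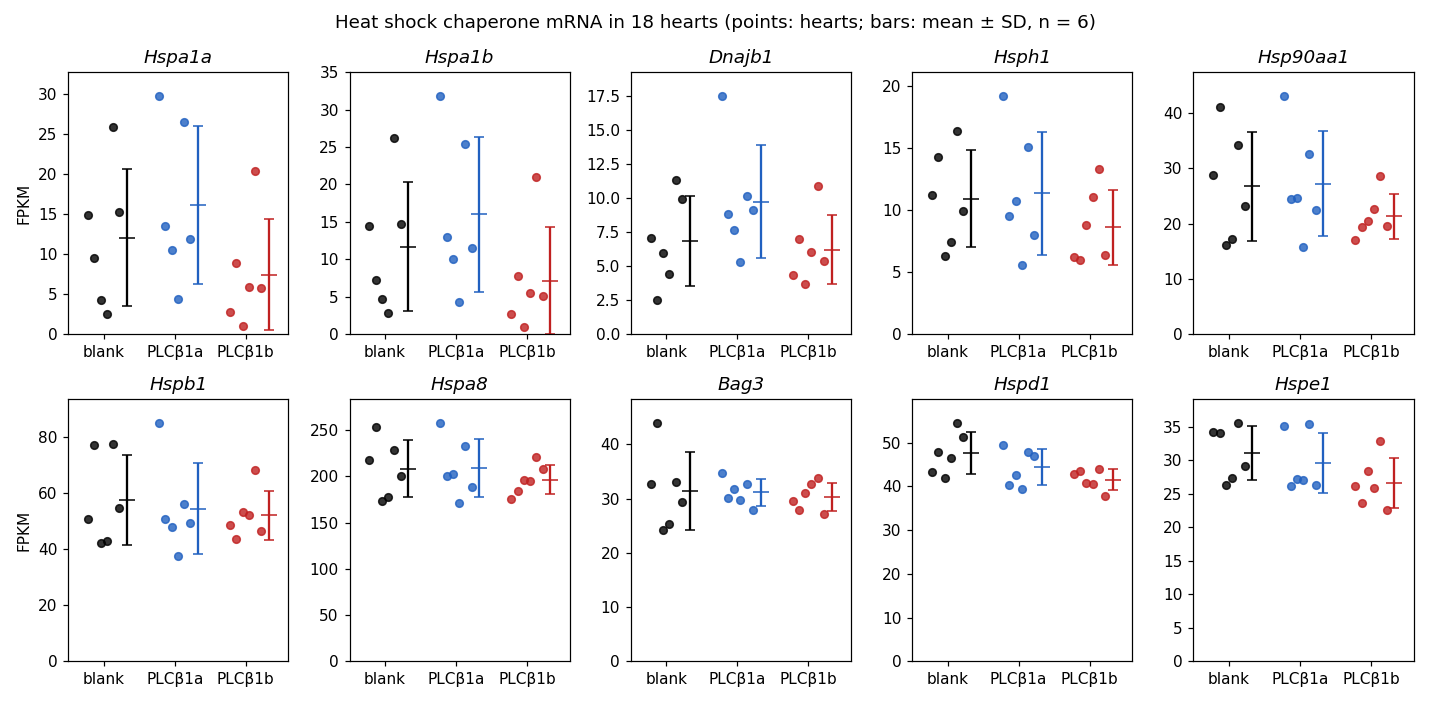
Level of each chaperone mRNA (vertical axis, FPKM, from 0) in the 6 hearts of each group (points), with mean ± SD at the right of each group. The groups overlap in all 10 panels, and Hspa1a and Hspa1b have the widest relative scatter, with 1 PLCβ1b heart at 20.98 FPKM of Hspa1b and the other 5 at 7.74 or less.

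The inducible HSP70 genes had lower means in PLCβ1b than in blank hearts and higher means in PLCβ1a, within very wide scatter. In CPM, Hspa1a ran from 2.61 over a median of 13.8 to 27.1 in blank hearts, from 4.62 over 13.9 to 32.7 in PLCβ1a hearts and from 1.0 over 7.15 to 22.1 in PLCβ1b hearts. Hspa1b ran from 3.20 over 11.3 to 28.8, from 4.51 over 13.1 to 37.5 and from 1.05 over 6.09 to 24.4 in the same order. High and low hearts occurred in every group, and all 3 groups overlapped. Among PLCβ1b hearts the only high one was heart 16. The other 5 had at most 9.54 CPM of Hspa1a and 7.43 of Hspa1b. The log2 fold change between PLCβ1b and blank was -0.77 for Hspa1a (95% interval -2.17 to 0.63) and -0.79 for Hspa1b (-2.25 to 0.68). Between PLCβ1a and blank it was 0.40 (-0.89 to 1.68) and 0.47 (-0.86 to 1.79), and between PLCβ1b and PLCβ1a it was -1.16 (-2.53 to 0.20) and -1.25 (-2.67 to 0.16). None of these passed the test (edgeR quasi-likelihood, lowest FDR 0.848), and all 6 intervals include 0. In bulk tissue, fewer cells of a type and less RNA per cell cannot be told apart. The fold changes against blank use the same 6 blank hearts, so the directions in PLCβ1b and PLCβ1a are not independent.

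PLCβ1b heart 16 sets much of the size of these estimates. Without it the log2 fold change of Hspa1b between PLCβ1b and blank was -1.51 and that of Hspa1a -1.34, and without the other hearts in turn they were no higher than -0.35 and -0.41. Across edgeR, DESeq2, limma and all other settings, the FDR of Hspa1b in this comparison lay between 0.606 and 0.977.

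The J-domain and HSP110 partners of HSP70 had the same order of means. Dnajb1, which stimulates the HSP70 ATPase, ran from 4.79 over a median of 12.53 to 19.5 CPM in blank hearts, from 9.62 over 16.4 to 31.5 in PLCβ1a hearts and from 6.65 over 10.9 to 20.9 in PLCβ1b hearts. The lowest blank heart was heart 30 and the highest PLCβ1a heart was heart 7, and the groups overlapped. The log2 fold change was -0.14 between PLCβ1b and blank (SE 0.37), 0.54 between PLCβ1a and blank (SE 0.35) and -0.68 between PLCβ1b and PLCβ1a (SE 0.35). Hsph1, the nucleotide exchange factor of the HSP110 class, ran from 21.6 over 36.1 to 52.2 CPM in blank hearts, from 18.2 over 34.1 to 65.4 in PLCβ1a hearts and from 19.7 over 24.3 to 45.5 in PLCβ1b hearts. Its widest range was among PLCβ1a hearts, and the PLCβ1b hearts reached below the lowest blank heart in 2 of 6. The log2 fold changes of Hsph1 were -0.33 (SE 0.32), 0.15 (SE 0.31) and -0.48 (SE 0.32) in the same order of comparisons.

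Hsp90aa1 and Hspa8, an HSP90 and an HSP70 gene, had their lowest means in PLCβ1b hearts, within overlapping ranges. Hsp90aa1, the stress-inducible HSP90, ran from 22.2 over a median of 37.8 to 54.9 CPM in blank hearts, from 21.4 over 32.1 to 56.9 in PLCβ1a hearts and from 22.8 over 28.6 to 38.9 in PLCβ1b hearts. Hspa8, which folds new proteins in unstressed cells, ran from 96.2 over 116 to 148 CPM, from 101 over 119 to 154 and from 95.3 over 111 to 132. In both genes the PLCβ1b hearts covered the narrowest range. The log2 fold change between PLCβ1b and blank was -0.33 for Hsp90aa1 (95% interval -0.88 to 0.22) and -0.08 for Hspa8 (-0.35 to 0.19). Between PLCβ1a and blank the values were -0.02 (-0.56 to 0.51) and 0.06 (-0.21 to 0.33).

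Hspb1 is a small heat shock protein, and Bag3 is a co-chaperone of HSP70. Mean Hspb1 was 24.8 CPM (blank), 23.1 (PLCβ1a) and 21.5 (PLCβ1b), and mean Bag3 was 67.0, 67.1 and 65.0. Hspb1 ran from 17.2 over a median of 23.1 to 38.3 CPM in blank hearts, from 16.6 over 23.2 to 29.9 in PLCβ1a hearts and from 17.3 over 21.6 to 26.2 in PLCβ1b hearts. Bag3 ran from 52.2 over 63.3 to 96.3 CPM, from 58.5 over 66.9 to 76.8 and from 59.6 over 62.1 to 75.1. The groups overlapped throughout, and in CPM the highest of all 18 hearts was blank heart 30 for both genes. The log2 fold change between PLCβ1b and blank was -0.21 for Hspb1 (95% interval -0.63 to 0.21) and -0.04 for Bag3 (-0.32 to 0.23), and between PLCβ1a and blank -0.10 (-0.52 to 0.32) and 0.00 (-0.28 to 0.28). Without blank heart 30 the PLCβ1b value of Bag3 turned to 0.09 and the PLCβ1a value of Hspb1 to 0.07.

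The mitochondrial pair was measured most evenly, and its values were a little lower in PLCβ1b hearts. Hspd1 ran from 81.9 over a median of 89.0 to 97.4 CPM in blank hearts, from 74.1 over 83.2 to 92.9 in PLCβ1a hearts and from 71.3 over 77.0 to 86.0 in PLCβ1b hearts. Hspe1, the lid of the HSP60 chamber, ran from 17.4 over 20.7 to 23.4 CPM, from 17.1 over 19.8 to 23.4 and from 15.5 over 17.2 to 20.6. For Hspd1, 5 of 6 PLCβ1b hearts lay below all 6 blank hearts and only PLCβ1b heart 16 lay among them. For Hspe1, 3 of 6 PLCβ1b hearts lay below all blank hearts. The log2 fold change between PLCβ1b and blank was -0.20 for Hspd1 (SE 0.05, 95% interval -0.31 to -0.09, unadjusted p = 0.000549) and -0.24 for Hspe1 (SE 0.10, -0.44 to -0.04, unadjusted p = 0.0209), both from edgeR. Over all 12281 genes tested the adjusted values were 0.196 and 0.599 (edgeR quasi-likelihood test), so neither passed the threshold of 0.1. By exact permutation of the group labels (two-sided, all arrangements of 6 against 6 hearts), the difference in mean CPM had p = 0.00866 for Hspd1 and 0.0649 for Hspe1.

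The call on Hspd1 depended on 1 heart and on the filter. Its FDR was 0.0744 without PLCβ1b heart 16 and also 0.0744 without the filter on low counts, whereas DESeq2 gave 0.213 and limma 0.733. Between PLCβ1a and blank, the log2 fold change of Hspd1 was -0.11 (SE 0.05, FDR 0.570, edgeR) and that of Hspe1 -0.03 (SE 0.09, FDR 0.965). Between PLCβ1b and PLCβ1a the values were -0.09 (SE 0.05) for Hspd1 and -0.21 (SE 0.10) for Hspe1, each with an edgeR FDR of 0.9999.

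None of the 10 members was called in any comparison by edgeR's quasi-likelihood test at an FDR below 0.1, where 0.0977% of all 12281 genes were called between PLCβ1b and blank, 0.138% between PLCβ1a and blank and 0% between PLCβ1b and PLCβ1a. At an unadjusted p under 0.05 there were 2 members (Hspd1 and Hspe1), 1 (Hspd1) and 1 (Hspe1), all lower in the first-named group, against 7.41%, 8.58% and 4.42% of all genes. DESeq2 and limma called no member either, with 2, 0 and 1 members and 2, 0 and 2 members at an unadjusted p under 0.05. No member had groups without overlap in CPM, which 0.48%, 0.594% and 0.179% of genes had in the same order. Without PLCβ1b heart 16, Hspd1 was without overlap. The 10 log2 fold changes between PLCβ1b and blank were all below 0, with a median of -0.22, where 6185 of 12281 genes were below 0 and the median was 0.00. Between PLCβ1a and blank 4 of the 10 were below 0, with a median of 0.03, and between PLCβ1b and PLCβ1a 10 were, with a median of -0.26. Since the members vary together across hearts, as described further on, these counts are not 10 separate observations.

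**Figure D2:**
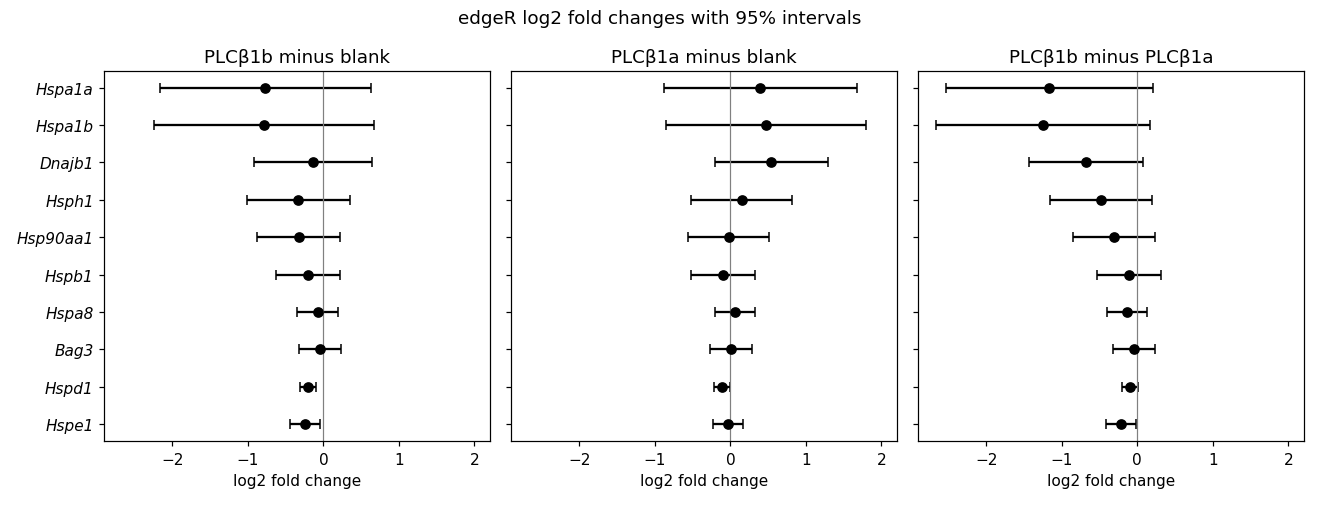
Log2 fold change of each member (horizontal axis) with its 95% interval from edgeR, in the 3 comparisons (panels). Intervals narrow from Hspa1a and Hspa1b at the top to Hspd1 and Hspe1 at the bottom, and those that leave 0 out belong to Hspd1 and Hspe1.

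The members varied widely between hearts of the same group. The biological coefficient of variation (BCV, the spread between hearts beyond counting error) was 0.614 for Hspa1b and 0.606 for Hspa1a, which ranked 7 and 8 of 12281 genes, where the trend at their abundance was 0.0766. Genes with a higher BCV were Lars2, Egr2, mt-Te, Egr1, Cxcl1 and Slc15a2, which were named after their values were seen. Dnajb1 ranked 43 (BCV 0.329), Hsph1 61 (0.290), Hsp90aa1 136 (0.235) and Hspb1 375 (0.183). Bag3 (0.126) and Hspa8 (0.123) ranked 1416 and 1536, and Hspe1 (0.0985) ranked 2677. Hspd1 ranked 5932, with a BCV of 0.0674 beside a median of 0.0662 over all genes. Hspa1b, Hspa1a, Dnajb1 and Hsph1 stood at the top of this order and the mitochondrial pair at the bottom. From the lowest to the highest of the 18 hearts, Hspa1b differed 35.7-fold in CPM and Hspa1a 32.7-fold, Dnajb1 6.57-fold, Hsph1 3.59-fold and Hspd1 1.36-fold.

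**Figure D3:**
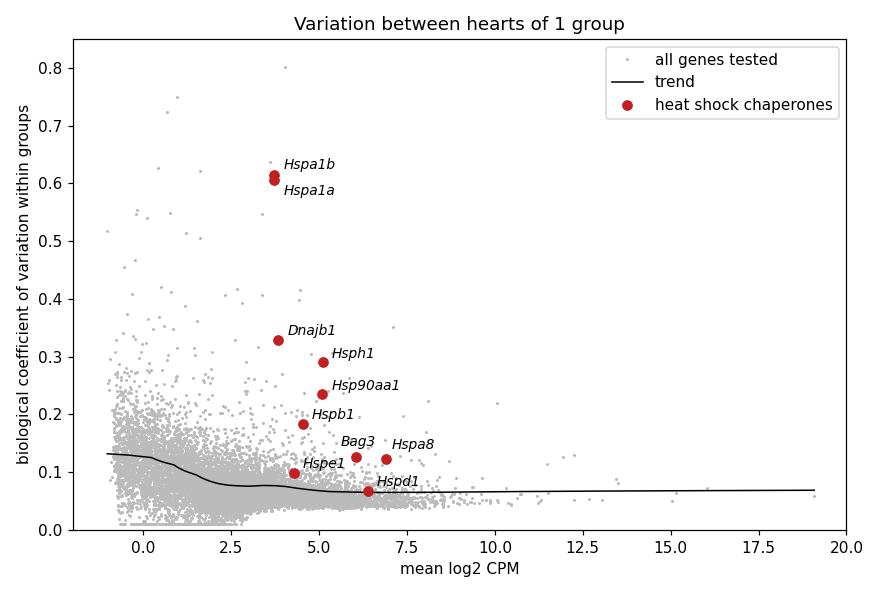
Biological coefficient of variation within groups (vertical axis) against mean log2 CPM (horizontal axis) for all genes tested, with the fitted trend (line) and the 10 chaperones (red points). Hspa1a and Hspa1b stand at 0.606 and 0.614, far above the trend, and Hspd1 stands on it.

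The same hearts were high or low in most members. PLCβ1a heart 7 was among the 4 highest of 18 hearts for 9 of 10 members, and blank heart 34 for 8. PLCβ1a heart 14, PLCβ1b heart 16 and blank heart 30 were each among them for 6 members. At the low end, PLCβ1b heart 4 was among the 4 lowest for 9 members, and blank heart 33 and PLCβ1a heart 13 for 7 each. Each group thus held hearts of both kinds, although heart 16 was the only PLCβ1b heart with any member among the 4 highest. Blank heart 30 was an exception in kind, being the highest in Bag3 and Hspb1 and the lowest in Dnajb1 by CPM. In FPKM it had 77.4 of Hspb1, below PLCβ1a heart 7 at 85.1 and blank heart 34 at 77.7. The summed chaperone share of nuclear counts was largest in PLCβ1a heart 7, at 0.192%, which also had the most nuclear counts, 7591558, while PLCβ1a heart 14, at 0.175%, had the fewest, 3908354.

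**Figure D4:**
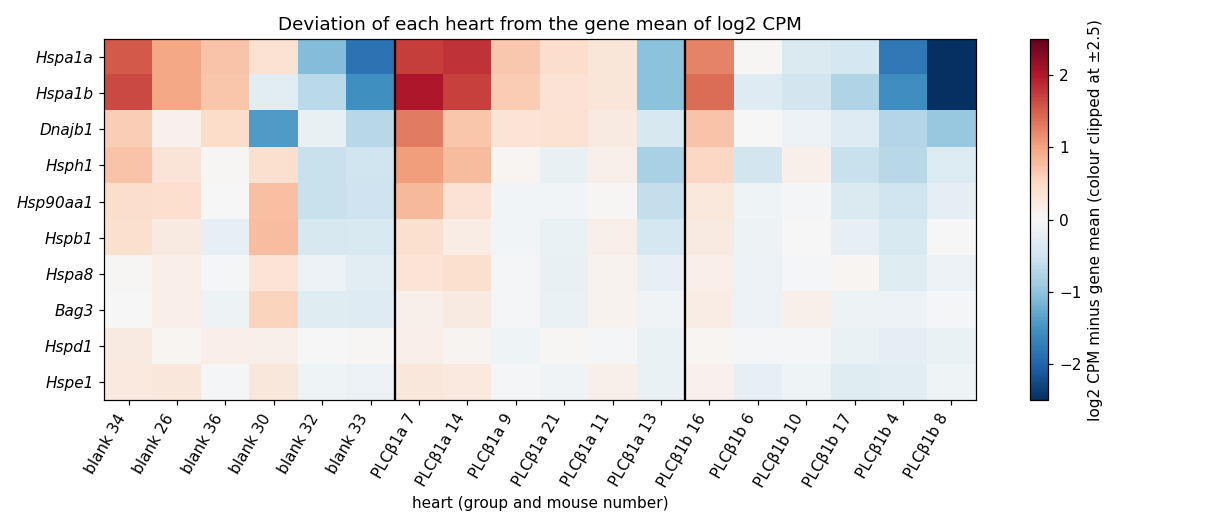
Deviation of each heart's log2 CPM from the mean of the gene over 18 hearts (colour, clipped at ±2.5), with members as rows and hearts as columns ordered by Hspa1b within each group. PLCβ1a heart 7 lies above the mean (red) and PLCβ1b heart 4 below it (blue) in every row, only faintly for Bag3 and Hspd1. Blank heart 30 is red for Bag3 and Hspb1 but blue for Dnajb1.

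Across the 18 hearts, log2 CPM of the members rose and fell together. Of the 45 pairs, 37 had a Benjamini-Hochberg adjusted p under 0.05 by Pearson's r and 42 by Spearman's rho, adjusted over the 45 pairs (100000 permutations). Every r on log2 CPM was above 0, with a median of 0.746 and a range from 0.0269 to 0.982. Taken as deviations from the group means, the median was 0.761 and the lowest -0.0148 (Dnajb1 with Bag3), and the same pair had -0.0237 in FPKM. Among the 6 blank hearts alone, 5 pairs had an r below 0, all with Dnajb1, down to -0.42 with Bag3. The 18 points of a pair share libraries and scaling, and reads of Hspa1a and Hspa1b can match both genes. How far such reads bear on their r of 0.982 was not tested.

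Apart from Hspa1a with Hspa1b, Hsp90aa1 with Hspb1 had the highest Pearson r on log2 CPM, with r = 0.942 and rho = 0.932 (permutation p = 1e-05 for each, the smallest that 100000 permutations can give; adjusted 5.62e-05 and 5e-05). Without the 2 hearts farthest from the median of Hspb1, r was 0.935. By other measures other pairs came first. These were Hsp90aa1 with Hsph1 by rho (0.944) and without the 2 hearts farthest from the median of Hsp90aa1 (r = 0.943), and Hspa8 with Hsp90aa1 in FPKM (r = 0.969). Hspd1 and Hspe1, which share a promoter region, had r = 0.756 and rho = 0.771 (permutation p = 0.00046 and 0.00034, adjusted 0.000986 and 0.000588). Without the 2 hearts farthest from the median of Hspd1, their r was 0.688. Hspe1 was closer to Hsph1 (r = 0.903) and to Hsp90aa1 (r = 0.902) than to its neighbour Hspd1, although the difference between these coefficients was not tested.

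Of the 8 pairs that did not pass, 6 involved Dnajb1 and 3 Bag3. The lowest relation was Dnajb1 with Bag3, at r = 0.0269 and rho = 0.331 (permutation p = 0.916 and 0.179, adjusted 0.916 and 0.179), and r was 0.528 without the 2 hearts farthest from the median of Dnajb1. Blank heart 30 weighed on 7 of these 8 pairs, whose r rose without it. Without it 44 of 45 pairs passed, the median r was 0.780, Dnajb1 with Bag3 had r = 0.564, and Dnajb1 with Hspb1 went from 0.189 to 0.708, while Hspd1 with Bag3 fell from 0.381 to 0.266, the lowest of the 45. The number of pairs that passed was lowest, at 33, without PLCβ1a heart 7.

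**Figure D5:**
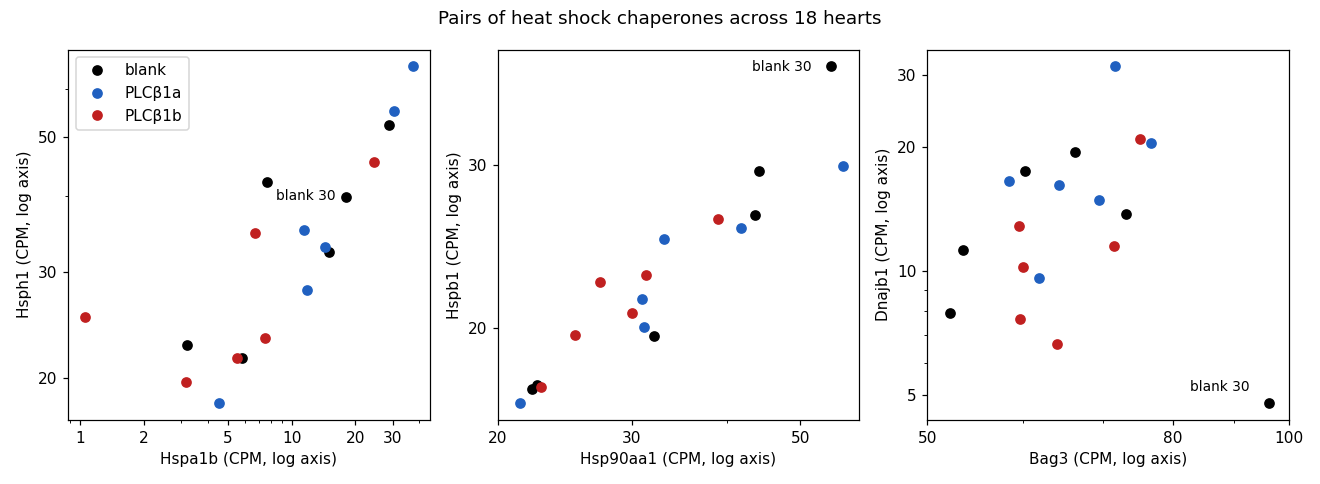
Levels of 3 pairs of members in the 18 hearts (both axes CPM, log scale; black blank, blue PLCβ1a, red PLCβ1b). Hspa1b with Hsph1 and Hsp90aa1 with Hspb1 rise together over hearts of all 3 groups, and blank heart 30 lies alone at 96.3 CPM of Bag3 and 4.79 of Dnajb1.

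Each member was also set against 12 other lists of genes, a family of 120 relations over the 18 hearts with each list taken as its mean log2 CPM. Of these, 6 had an adjusted p under 0.05 by Pearson's r and 2 by Spearman's rho. Endoplasmic reticulum stress genes went with Hspa8 (r = 0.748, rho = 0.806, permutation p = 4e-05 and 8e-05, adjusted 0.0048 and 0.0096), and r was 0.843 without the 2 hearts farthest from the median of the list. They also went with Bag3 (r = 0.784), Hspb1 (0.728) and Hsp90aa1 (0.667), with adjusted permutation p from 0.0174 to 0.0238 by r and from 0.12 to 0.14 by rho, and r of 0.517, 0.489 and 0.550 without 2 such hearts. Bag3 went with the skeletal muscle markers (r = 0.717, rho = 0.771, permutation p = 0.00043 and 0.00029, adjusted 0.0174 for both, r = 0.685 without 2 hearts), a list whose Acta1 and Ckm heart muscle also expresses. Dnajb1 went with the immediate early genes (r = 0.725, rho = 0.686, permutation p = 0.00058 and 0.0022, adjusted 0.0174 and 0.0783, r = 0.557 without 2 hearts). The mean of the immediate early genes was highest in PLCβ1a heart 7, at 3.95 log2 CPM, and lowest in blank heart 30, at 1.88, the hearts at the ends of Dnajb1. Blank heart 30 also had the lowest clock output genes, at 3.89 log2 CPM where the other 17 hearts had at least 4.55. Its endoplasmic reticulum stress genes were the highest, at 5.04 log2 CPM, where the next heart, blank heart 26, had 4.64. The same heart ranked 1 of 18 for Bag3 and Hspb1 and 2 for Hsp90aa1, so it weighed on the r of these genes with that list. Between PLCβ1b and blank, all 16 endoplasmic reticulum stress genes had a log2 fold change below 0 (median -0.15). Of these, 3 had an unadjusted edgeR p under 0.05, or 18.8% beside 7.41% of all genes. Of the 14 immediate early genes, 13 were above 0 (median 0.43). At an unadjusted p under 0.05, 0 of them were higher and 1 was lower, or 7.14%. EdgeR called none of either list. The same 16 stress genes were also below 0 between PLCβ1a and blank (median -0.09). At an unadjusted p under 0.05 there was 1, or 6.25% beside 8.58% of all genes, and it was called lower (edgeR FDR 0.0734). In that comparison 12 of the 14 immediate early genes were above 0 (median 0.60), with 5 higher and 1 lower at an unadjusted p under 0.05, or 42.9%. The part of these lists in the chaperone values was not tested. Within groups 12 relations passed, and 2 passed with FPKM or without blank heart 30. On log2 CPM over the 18 hearts, no relation with the cardiomyocyte, endothelial, fibroblast, smooth muscle, leukocyte, atrial or erythrocyte markers passed. The relation of Dnajb1 with the endothelial markers was negative (r = -0.57, rho = -0.67, permutation p = 0.0133 and 0.00261, adjusted 0.145 and 0.0783), with r = -0.65 without 2 hearts and -0.67 within groups.

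Among genes outside the 10, those most like Hspa1b, Hsph1 and Hspd1 over the 18 hearts were compared by Pearson's r of log2 CPM over the 5952 genes that averaged 3 FPKM or more, as a description. Hspa1b was nearest to Dnaja1 (r = 0.941), a farnesylated J-domain partner of HSP70, then to Ahsa2 (0.913), Ccdc117 (0.866), Herc4 (0.822) and Zfp758 (0.815). Hsph1 was nearest to Ahsa1 (0.901), an activator of the HSP90 ATPase, then to Stip1 (0.895), which bridges HSP70 and HSP90, Ahsa2 (0.894), P4ha1 (0.892) and Tmem33 (0.874). Hspd1 was nearest to Ahsa1 (0.874), then to Zfp568 (0.838), Cct8 (0.812) and Cct6a (0.808), subunits of the cytosolic chaperonin, and Ndufaf4 (0.809). Chaperone partners of the cytosol thus led all 3 lists, and the mitochondrial Hspd1 had none of the mitochondrial chaperones listed among its nearest 5. Of the 16 HSP90 and co-chaperone genes, 8 had r of at least 0.7 with Hsph1 (median 0.721), where 0.505% of all genes tested did. Of the 21 other mitochondrial chaperones and proteases none did with Hspd1 (median 0.192, highest 0.579 for Timm44). The 4 heat shock factors and regulators that were tested had a median r of 0.0282 with Hspa1b and 0.0354 with Hsph1, and the mRNA of Hsf1 itself stayed between 3.88 and 5.37 FPKM over the 18 hearts.

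Of 103 other genes of the chaperone network listed by name, 102 were in the count table and 99 were tested, and edgeR called none in any comparison. At an unadjusted p under 0.05 there were 1 higher and 7 lower between PLCβ1b and blank, 0 and 4 between PLCβ1a and blank, and 1 and 0 between PLCβ1b and PLCβ1a. These are 8.08%, 4.04% and 1.01% of the 99, beside 7.41%, 8.58% and 4.42% of all genes, so the shares were near or below those of all genes. DESeq2 and limma called none either, with 10 and 11, 5 and 4, and 2 and 1 genes at an unadjusted p under 0.05 (limma on log2(FPKM + 0.1)). The median log2 fold change was -0.04, -0.03 and -0.01. All 13 tested genes of the CCT chaperonin and prefoldin, which fold actin and tubulin, were below 0 between PLCβ1b and blank, with a median of -0.07 and none called, and 11 of 13 between PLCβ1a and blank, with a median of -0.06. Of the 99 network genes, 73 and 70 were below 0 in these comparisons, beside 6185 and 6211 of all 12281 genes. Many of these genes varied with the members across hearts, and the 13 CCT and prefoldin genes had a median r of 0.591 with Hspd1. The counts below 0 are therefore not separate observations, and both comparisons use the same blank hearts.

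The genes with the lowest p were small heat shock proteins and HSP70 or HSP90 partners. Hspb3, a small heat shock protein of muscle, had 4.38 ± 0.825 FPKM (SD, n = 6) in blank hearts, 4.45 ± 0.735 with PLCβ1a and 5.96 ± 1.17 with PLCβ1b, a log2 fold change of 0.49 for PLCβ1b against blank (SE 0.15, edgeR FDR 0.349) with 5 of 6 PLCβ1b hearts above all blank hearts. Its partner Hspb2 had 17.2 ± 0.886 FPKM in PLCβ1b and 20.2 ± 2.42 in blank hearts, a log2 fold change of -0.22 (SE 0.07, edgeR FDR 0.379). Fkbp5, an HSP90 co-chaperone, had 1.74 ± 0.324 FPKM in PLCβ1b, 1.80 ± 0.351 in PLCβ1a and 2.46 ± 0.573 in blank hearts, with log2 fold changes against blank of -0.51 (edgeR FDR 0.402) and -0.43 (edgeR FDR 0.416). Hspa12b, an HSP70 relative of endothelium, had -0.21 between PLCβ1a and blank (edgeR FDR 0.368). None of these 4 passed the test.

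Among the other genes that the naming rule took, Ubqln2 had a log2 fold change of 0.16 between PLCβ1b and blank, and Hspa12a and Hsbp1 had 0.14 and 0.08 between PLCβ1a and blank. Dnajc27 had 0.20, Ahsa2 -0.36 and Cct4 -0.09 between PLCβ1b and PLCβ1a. The FDR of these 6 was at least 0.692 (edgeR). The 3 most abundant genes of the network were the lens and muscle chaperone Cryab, at 403 ± 41.8 FPKM (blank), 381 ± 22.4 (PLCβ1a) and 374 ± 17.0 (PLCβ1b), the constitutive HSP90 Hsp90ab1, at 231 ± 31.4, 225 ± 19.0 and 209 ± 7.95, and the small heat shock protein Hspb6, at 143 ± 11.1, 145 ± 11.8 and 147 ± 4.09. Their differences were smaller than 1 SD of the blank hearts.

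Hspa1l, an HSP70 relative that starts 546 bases from Hspa1a on the other strand, was named after its values were seen, since it was the 1 gene of the network that any setting called. It ran from 2.07 to 5.25 CPM in blank hearts, with a mean of 3.67, and from 1.93 to 3.39 in PLCβ1b hearts, with a mean of 2.57. The log2 fold change was -0.52 (SE 0.17, edgeR FDR 0.427), and the FDR was 0.0924 without blank heart 33. In PLCβ1a hearts it was -0.44 against blank (SE 0.17, edgeR FDR 0.454). Its r with Hspa1b over the 18 hearts was 0.534, the highest of the other HSP70 and HSP110 genes.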

How the data were processed

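RNA from 18 mouse hearts (6 per vector) was sequenced after ribosomal RNA depletion, as strand-specific read pairs. The authors aligned reads to the mm10 UCSC transcriptome with TopHat (TopHat2 2.0.10 in the submitters' processing notes) and made the deposited counts per gene with HTSeq in union mode, without normalization. The FPKM values were also made by the authors, with a program that the sources used here do not name for them, although Cufflinks 2.1 stands in the processing notes. Columns were mapped to hearts by mouse number, and none was left out.

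Counts were TMM-scaled and tested with edgeR 4.0.16 (R 4.3.3), using the robust quasi-likelihood test in 1 fit of the 3 groups. The filter took a minimum count of 10 and a minimum total of 15 and left 12281 genes. A gene was called at a Benjamini-Hochberg FDR below 0.1 over all genes tested. SE and 95% intervals come from the same fit. The p-values measure the spread between mice. Log2 CPM had a prior count of 2. Relations across hearts used 100000 permutations, adjusted over 45 pairs or 120 relations at 0.05. Depth (3908354 to 7591558 nuclear counts per heart) gave each member between 20 and 3679 counts in a heart, and the lowest counts, 20 and 21 for Hspa1a and Hspa1b, carry the most counting error.

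The 10 members and all gene lists were chosen with earlier results of these data known. The text names all members, every gene of the network list that is called, in each comparison the 2 of lowest p on either side of 0, the 3 most abundant, the 5 genes most like Hspa1b, Hsph1 and Hspd1, and Plcb1 as a check of the labels. Genes outside this rule are marked. Alternatives were DESeq2 1.42.0, upper-quartile scaling, no filter, mitochondrially encoded genes (37) left out, limma 3.58.1 on log2(FPKM + 0.1) or log2(FPKM + 1) for genes averaging 0.1 FPKM or more, a fit of the compared groups alone, an FDR below 0.05, each heart left out in turn and, chosen after seeing the data, variances without robust shrinkage. Programs were tested on simulated data. Shared windows (75 bases) were counted over GENCODE M21 transcripts. Pairs of hearts of the same group were checked for duplicates, and none agreed within sampling noise. Permutations ran in scipy 1.17.1 (Python 3.11.15), tables were handled with pandas 2.3.3 and numpy 2.4.6, and plots were drawn with matplotlib 3.10.9. The hearts of other series that the study compared were not analysed here.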

Additional observations from a re-analysis of the deposited data

Results flagged for a closer look

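In PLCβ1b heart 16, Hspa1b stood at 24.4 CPM, apart from the other 5 hearts of its group, which ran from 1.05 to 7.43 CPM. The gap to the nearest heart was larger, relative to the range of the group, than Dixon's 95% limit for 6 values. It was the 1 such case among 30 groups of 6 hearts examined (10 members in 3 groups), and chance sets apart about 1 in 20 groups. The same heart was among the 4 highest of 18 for 6 of the 10 members and had 22.1 CPM of Hspa1a, 20.9 of Dnajb1 and 45.5 of Hsph1.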

How the results depend on the processing

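The number of members called between PLCβ1b and blank went from 0 to 1 (Hspd1) without the filter on low counts, and with each heart left out it lay between 0 and 1, the 1 being Hspd1 without PLCβ1b heart 16. With each heart left out, the other network genes called in that comparison lay between 0 and 1 (Hspa1l, without blank heart 33), and the members without overlap between 0 and 1. No other setting tried called a member in any of the 3 comparisons. Between PLCβ1a and blank, the log2 fold change of Hsp90aa1 turned to 0.0349 and 0.0331 with limma on log2(FPKM + 0.1) and log2(FPKM + 1), and that of Bag3 to -0.00306 without the filter. With each heart left out, the log2 fold change between PLCβ1b and blank ran from -0.38 to 0.048 for Dnajb1 and from -0.11 to 0.089 for Bag3. Between PLCβ1a and blank it ran from -0.20 to 0.069 for Hspb1, -0.0064 to 0.13 for Hspa8, -0.22 to 0.13 for Hsp90aa1, -0.081 to 0.017 for Hspe1, -0.080 to 0.30 for Hsph1 and -0.062 to 0.14 for Bag3. No member turned between PLCβ1b and PLCβ1a in the settings tried. The relations with other lists that passed numbered 2 with FPKM and 12 within groups, against 6, and 2 (without blank heart 30) to 8 (without blank heart 34 or PLCβ1b heart 17) with each heart left out. The cause of these shifts was not tested.

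Over all genes, edgeR called 12 between PLCβ1b and blank and 17 between PLCβ1a and blank. DESeq2 called 24 and 33, edgeR without the filter 24 and 29, and limma 5 and 5 with either pseudocount. For PLCβ1a, 10 were called with only the 2 groups compared and 10 without robust shrinkage. With each heart left out the counts ran from 2 to 18 and from 3 to 19. Between PLCβ1b and PLCβ1a, DESeq2 called 1 and edgeR without robust shrinkage 1, against 0, and with each heart left out the count was 0 or 1. Counting error is largest for Hspa1a and Hspa1b, whose lowest hearts had 20 and 21 counts. No paired analysis was possible because the groups share no mouse numbers.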
